A study of Homo sapiens with 18 samples.

Results

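The genes described here encode the machinery of the DNA replication fork and of chromatin assembly behind it, in RNA-seq of H1299 cells. They are 42 genes, chosen by symbol, out of 60622 genes in the deposited count tables: factors that fire origins, replicative polymerases, clamp loaders, Okazaki fragment enzymes, the single-strand binding complex RPA, fork protection proteins, and factors that restore nucleosomes and DNA methylation. The MCM helicase genes and PCNA are not among them. All 42 were found once each in the tables, and 41 or 42 had enough counts to be tested in each comparison.

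H1299 is an established cell line from a non-small cell lung carcinoma and is known to lack endogenous p53 protein. The treatment protocol, given alike for all samples, names cells with p53-FKBP12F36V-HA, a tagged wild-type p53 that doxycycline induces, and 3 libraries were made for each of 6 groups, all 24 h after treatment. AceTAG compounds are heterobifunctional molecules that bind the FKBP12F36V tag at one end and a lysine acetyltransferase at the other. AceTAGp300/CBP-1 is named for p300/CBP and AceTAGPCAF/GCN5-4 for PCAF/GCN5; they are called the p300/CBP compound and the PCAF/GCN5 compound below. The groups were induced cells with DMSO, induced cells with the p300/CBP compound, induced cells with the PCAF/GCN5 compound, and non-induced cells with the same 3 treatments. Per the labels, the medium during treatment held no selection drugs, and no compound dose is given, so the compounds were compared as applied. The titles and cell line labels name the p53 fusion for induced samples only and H1299 alone for the others, so whether non-induced cells carry the fusion or received doxycycline is not settled by the labels. Nothing says that the 3 libraries of a group came from separate cultures, so p-values measure only the spread between these libraries, which may be technical.

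At a replication origin, the origin recognition complex (ORC) marks the site where the MCM helicase is loaded, and CDC45 and the GINS complex later join MCM to form the active helicase. Primase with polymerase alpha starts each strand, replication factor C (RFC) loads the sliding clamp PCNA, polymerases epsilon and delta extend the leading and the lagging strand, and FEN1, DNA2 and LIG1 trim and seal Okazaki fragments. CAF-1 deposits histones on the new DNA, while UHRF1 and DNMT1 copy its methylation. Many of these genes are known targets of E2F factors and are transcribed most around S phase. In many cell types p53 raises CDKN1A, whose product p21 inhibits cyclin-dependent kinases and keeps RB family repressors active at such genes.

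Promoter sequences of 6 members are shown because these genes bracket the response to p53 induction described below: PRIM1, ORC1, CLSPN and RFC3 had the most negative log2 fold changes among members with a searched motif in the printed window, and LIG1 and POLD2 had the log2 fold changes closest to 0 among members with a promoter sequence. They come from RefSeq (GRCh38.p14), which held a promoter for 34 of the 42 members. Each runs 5′ to 3′ on the gene's strand from 130 bases before to 20 bases after the annotated start, and capitals mark a CCAAT box or an E2F-type site on either strand (CCAAT reads ATTGG and TTTCCCGC reads GCGGGAAA on the other strand). The windows are chr12:56752304-56752453 (-) for PRIM1, chr1:52404404-52404553 (-) for ORC1, chr1:35769959-35770108 (-) for CLSPN, chr13:33818019-33818168 (+) for RFC3, chr19:48170325-48170474 (-) for LIG1 and chr7:44123529-44123678 (-) for POLD2.
PRIM1: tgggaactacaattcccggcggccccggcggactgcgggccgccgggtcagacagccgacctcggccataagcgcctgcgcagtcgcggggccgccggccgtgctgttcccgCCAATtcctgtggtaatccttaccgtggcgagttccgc
ORC1: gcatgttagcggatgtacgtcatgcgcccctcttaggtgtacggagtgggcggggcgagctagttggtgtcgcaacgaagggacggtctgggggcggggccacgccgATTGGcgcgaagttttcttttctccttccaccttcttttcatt
CLSPN: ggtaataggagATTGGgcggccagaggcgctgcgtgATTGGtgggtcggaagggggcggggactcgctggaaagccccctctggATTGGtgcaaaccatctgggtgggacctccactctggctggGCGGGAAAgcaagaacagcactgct
RFC3: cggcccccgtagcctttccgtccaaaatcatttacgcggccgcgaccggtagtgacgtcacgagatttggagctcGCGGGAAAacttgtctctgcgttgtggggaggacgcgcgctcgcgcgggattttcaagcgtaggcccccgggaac
LIG1: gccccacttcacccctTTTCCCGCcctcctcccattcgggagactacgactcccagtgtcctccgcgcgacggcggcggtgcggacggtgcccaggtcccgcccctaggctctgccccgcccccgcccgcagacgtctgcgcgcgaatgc
POLD2: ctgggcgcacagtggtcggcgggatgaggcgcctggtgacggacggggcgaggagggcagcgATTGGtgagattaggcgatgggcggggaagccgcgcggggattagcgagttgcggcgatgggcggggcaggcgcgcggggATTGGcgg

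The window of CLSPN held 3 CCAAT boxes and 1 E2F-type site, those of RFC3 and LIG1 held 1 E2F-type site each, those of PRIM1 and ORC1 held 1 CCAAT box each, and that of POLD2 held 2 CCAAT boxes. The E2F-type site, the CCAAT box and 1 further motif were searched on both strands of the full 300-base RefSeq windows, from 250 bases before to 50 after the start. An E2F-type site (TTTCCCGC, TTTGGCGC, TTTCGCGC or TTTGCCGC) was present in 13 of 34 member promoters (38.2%) against 908 of 27305 promoters in all (3.33%). A CCAAT box was present in 20 of 34 (58.8%) against 35.7% of all promoters, and the cell cycle homology element (TTTGAA or TTCGAA) in 0 of 34 against 16.62%. The motifs do not overlap in letters, and a match is a description of sequence, not evidence of binding. The 13 members with an E2F-type match had a median log2 fold change of -0.86 on p53 induction, and the 21 members with a promoter but no match had the same median, -0.86.

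Libraries held 9055888 to 29166322 counts, and levels are given as CPM, a gene's counts over the library total times 1000000. MDM2, a p53 target, averaged 68.5 ± 1.09 CPM (SD, n = 3) in non-induced and 582 ± 20.3 CPM in induced DMSO cells, in the direction of the labels. Of the epithelial markers, KRT8 was at 68.6 to 98.7 CPM and KRT18 at 154 to 315 CPM, whereas the defining markers EPCAM and CDH1 were at most 0.120 and 0.178 CPM. The mesenchymal marker VIM was at 2366 to 3989 CPM, and the lung lineage markers NKX2-1 and SFTPB together reached at most 0.602 CPM. Summed markers of other cell types were at most 0.617 CPM for leukocytes, with PTPRC at 0 throughout, 0.706 CPM for endothelium and 2.63 CPM for fibroblasts. The third induced DMSO library stood apart: 0.714% of its counts were mitochondrial against 1.84% and 2.14% in its partners, and its chi-square per gene against them was 44.0 and 49.6, where the partners differed from each other by 3.79. Counts of members called against induced DMSO cells are therefore given with and without it, as are the members whose call changed. The first non-induced PCAF/GCN5 library had 1.31% mitochondrial counts against 2.26% and 2.11% in its partners, with a chi-square per gene of 18.7 and 15.7 against 3.95 between them, and the induced PCAF/GCN5 libraries differed from each other by 10.9 to 13.6. The other groups ranged from 1.80 to 10.3.

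Summed over all 42 genes, the level was 3687, 3682 and 3563 CPM in non-induced DMSO cells and 2177, 2237 and 2350 CPM in induced DMSO cells. It was 3026, 2803 and 2653 CPM with the p300/CBP compound in non-induced cells and 1729, 1722 and 1674 CPM in induced cells. With the PCAF/GCN5 compound it was 3405, 3603 and 3423 CPM in non-induced and 2067, 1988 and 1970 CPM in induced cells. The induced libraries were therefore all below the non-induced ones, and within each state the p300/CBP libraries were all below the DMSO and PCAF/GCN5 libraries. Bulk RNA cannot tell fewer cells in S phase from less of each mRNA per cell.

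**Figure D1:**
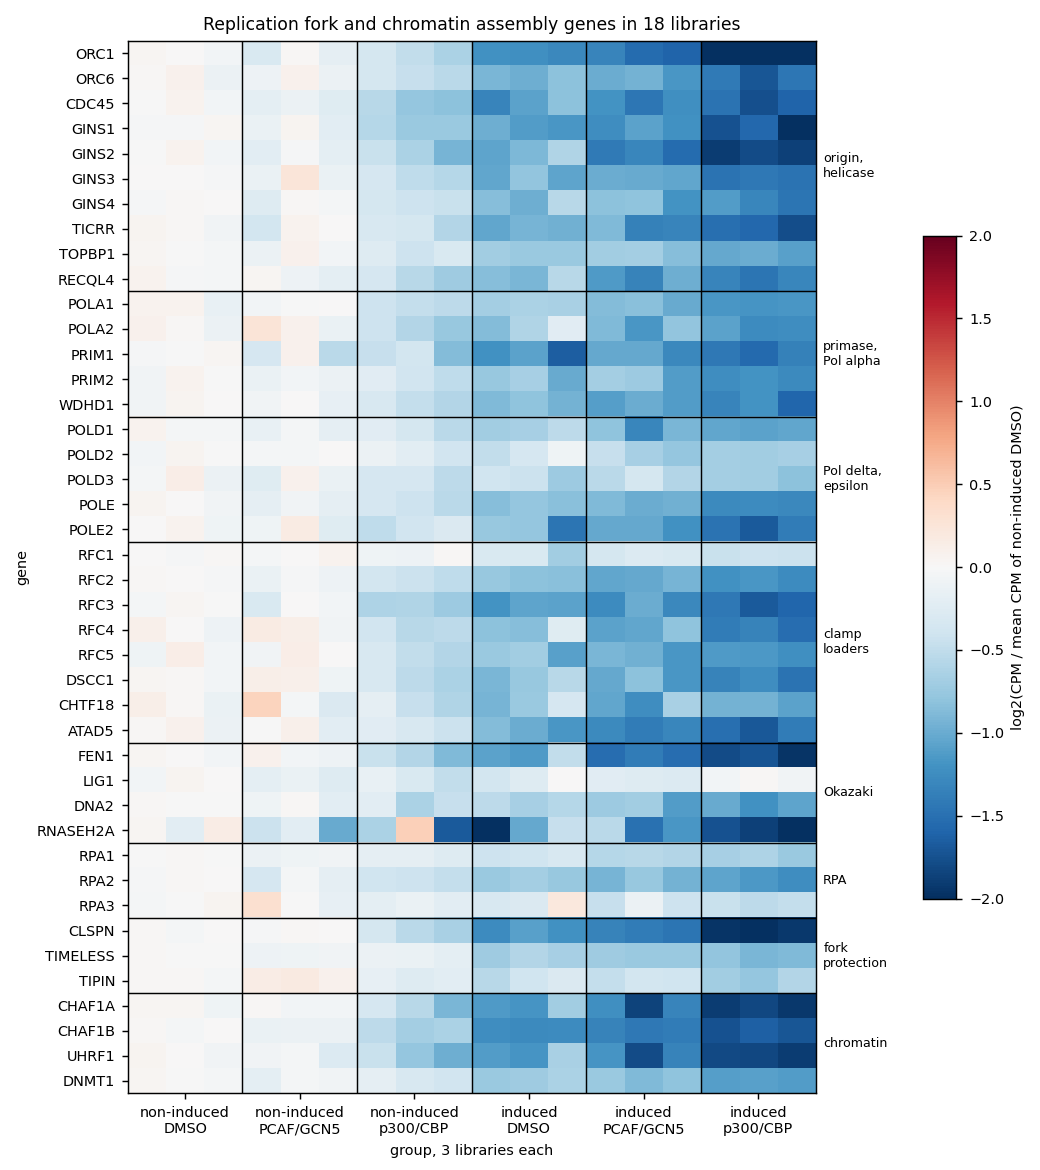
Level of each of the 42 genes (rows, by role) in the 18 libraries (columns, 3 per group), as log2 of CPM over the mean CPM of non-induced DMSO cells; the colour scale ends at -2 and 2. By group mean the induced p300/CBP columns are the lowest in every row but LIG1. In PRIM1 and RFC1 the single lowest column is the third induced DMSO library.

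Per gene, the mean level in induced DMSO cells was a median of 57.4% of that in non-induced DMSO cells (range 40.9% for PRIM1 to 92.5% for RPA3). The corresponding medians were 74.1% for the p300/CBP compound and 94.4% for the PCAF/GCN5 compound in non-induced cells, and 40.3% and 50.2% in induced cells. Of the 42 genes, 41 had their lowest mean in induced cells with the p300/CBP compound, and the exception was LIG1. Non-induced DMSO cells had the highest mean for 32 genes, and 28 genes shared 1 full order: non-induced DMSO, non-induced PCAF/GCN5, non-induced p300/CBP, induced DMSO, induced PCAF/GCN5, induced p300/CBP. Neighbours in that order were not always separable, since the PCAF/GCN5 groups and their DMSO groups did not pass the test for any member, as given below. Per kilobase of exon, levels in non-induced DMSO cells spanned 54.0 CPM per kb for DNMT1, 52.9 for RPA1 and 50.7 for RPA2 down to 1.72 for POLA2 and 0.273 for RNASEH2A, with a median of 12.1. RNASEH2A, the catalytic subunit of RNase H2, was at 0.165 to 1.39 CPM in every library, and 30.8% of its exonic bases are shared with THSD8, so its values are imprecise. THSD8 itself was at most 0.137 CPM. How reads of shared bases were counted is not given, so the level and rank of RNASEH2A may be too low.

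The first comparison set induced against non-induced cells without a compound. Any effect of doxycycline or of the cell line itself cannot be told apart from that of p53 here. In DMSO, 37 of 42 members fell, 0 rose and 5 did not pass (edgeR quasi-likelihood test, adjusted p below 0.05), where 7.77% of the 15055 genes tested fell. The median log2 fold change was -0.83 against 0.01 over all genes tested. CPM ranges of the groups did not overlap, induced below non-induced, for 40 of 42 members, against 16% of all genes tested. Without the third induced DMSO library all 42 members fell, beside 17.2% of all genes tested. VIM also fell on induction (log2 fold change -0.51 ± 0.0799, edgeR adjusted p = 0.00336), while KRT8 and KRT18 did not pass (KRT18 fell by 0.16 without that library); the part of these in the members' values was not tested.

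All 10 origin and helicase activation genes fell, by a median log2 fold change of -0.96. ORC1 (chr1:52372829-52404423), the largest ORC subunit, was at 47.4, 46.0 and 44.4 CPM in non-induced and 19.8, 19.5 and 18.7 CPM in induced DMSO cells. The groups lay far apart and each was tight; the log2 fold change was -1.28 ± 0.0742 (SE, n = 3 per group, edgeR adjusted p = 1.98e-05). GINS1, a subunit of the GINS complex, fell by 1.11 ± 0.0835 on the log2 scale (edgeR adjusted p = 5.98e-05), and CDC45, the helicase cofactor, by 1.08 ± 0.128 (edgeR adjusted p = 0.000744). CDC45 varied among induced libraries, at 17.7, 21.01 and 25.1 CPM, all below the 42.4 to 46.2 CPM of non-induced cells. The least negative value of the group was that of TOPBP1, a scaffold for origin firing and checkpoint signalling, at -0.76 ± 0.0553.

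Of the 5 primase and polymerase alpha genes, 4 fell. PRIM1 (chr12:56731296-56752374), the catalytic primase subunit, was at 25.8, 25.8 and 26.7 CPM in non-induced and 11.2, 12.4 and 8.31 CPM in induced cells, the lowest value being that of the third induced library. Its log2 fold change, -1.32 ± 0.135 (edgeR adjusted p = 0.000324), was the most negative of all members, and without that library it was -1.17; 22.2% of its exonic bases are shared with other annotated genes. WDHD1, which anchors polymerase alpha to the helicase, fell by 0.91 ± 0.079. POLA2, the B subunit, had -0.58 ± 0.173 (edgeR adjusted p = 0.0572); it is weakly counted, and 39.4% of its exonic bases are shared with other annotated genes.

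Among the subunits of polymerases delta and epsilon, 4 of 5 fell. POLE2, the second subunit of polymerase epsilon, fell by 1.00 ± 0.166, and POLE, the catalytic subunit, was at 140, 135 and 128 CPM before and 74.5, 78.5 and 75.1 CPM after induction. These POLE ranges were narrow and separate (log2 fold change -0.85 ± 0.0612, edgeR adjusted p = 5.25e-05). POLD2, an accessory subunit of polymerase delta, had -0.32 ± 0.105 (edgeR adjusted p = 0.08), with 116 and 130 CPM in the first induced libraries and 154 CPM in the third, against 158 to 170 CPM without induction.

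All 8 clamp loader and unloader genes fell. RFC3, a small subunit of replication factor C, fell most, from 43.0, 45.5 and 44.2 to 19.4, 21.3 and 20.99 CPM (log2 fold change -1.13 ± 0.0805, edgeR adjusted p = 5.23e-05). ATAD5, which unloads PCNA, fell by 1.03 ± 0.105. RFC1, the large subunit, fell least, by 0.45 ± 0.0957 (edgeR adjusted p = 0.0148), at 237, 239 and 181 CPM in induced cells against 288 to 297 CPM in non-induced cells. The third induced library was the low one, and without it the log2 fold change was -0.34.

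Okazaki fragment genes were mixed: 2 of 4 fell and 2 did not pass. FEN1 (chr11:61792911-61797238), the flap endonuclease, was at 102, 101 and 96.1 CPM in non-induced and 47.3, 45.6 and 70.7 CPM in induced cells (log2 fold change -0.89 ± 0.159, edgeR adjusted p = 0.0064). The third induced library was well above its partners but below every non-induced one, and without it the log2 fold change was -1.14. LIG1 (chr19:48115445-48170603), the ligase that seals fragments, was at 59.2, 63.7 and 61.8 CPM in non-induced and 47.6, 51.3 and 61.8 CPM in induced cells, so that the ranges overlapped through the third library. LIG1 had -0.23 ± 0.106 (edgeR adjusted p = 0.202), and without that library it fell by 0.35 (edgeR adjusted p = 2.61e-06). RNASEH2A had -1.04 ± 0.414 (edgeR adjusted p = 0.136), or -1.45 (edgeR adjusted p = 0.0149) without the third library, as POLD2 and POLA2 had -0.45 and -0.79 and passed. DNA2, a nuclease-helicase, fell by 0.61 ± 0.0813.

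Of the RPA subunits, RPA2 fell by 0.76 ± 0.0605 and RPA1, the large subunit, by 0.41 ± 0.0587, while RPA3, the small subunit, had -0.13 ± 0.145 (edgeR adjusted p = 0.591) and, without the third induced library, fell by 0.33 (edgeR adjusted p = 0.000127). All 3 fork protection genes fell. CLSPN (chr1:35720218-35769978), the checkpoint adaptor claspin, was at 121, 115 and 120 CPM in non-induced and 49.8, 55.8 and 51.4 CPM in induced cells (log2 fold change -1.21 ± 0.0675, edgeR adjusted p = 1.62e-05). Its partners at the fork had smaller estimates: TIMELESS fell by 0.68 ± 0.0595 and TIPIN by 0.43 ± 0.097.

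All 4 chromatin genes fell. CHAF1B, the p60 subunit of CAF-1, was at 47.0, 44.9 and 46.7 CPM in non-induced and 19.4, 19.05 and 19.3 CPM in induced cells, both narrow ranges and far apart (log2 fold change -1.29 ± 0.0742, edgeR adjusted p = 1.98e-05). CHAF1A (chr19:4402640-4445018), the large subunit, fell by 1.01 ± 0.128, with 97.7 CPM in the third induced library against 72.2 and 70.0 CPM in its partners. UHRF1, which recruits DNMT1 to half-methylated DNA, fell by 0.99 ± 0.137, and DNMT1, the maintenance methyltransferase, by 0.73 ± 0.0626.

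**Figure D2:**
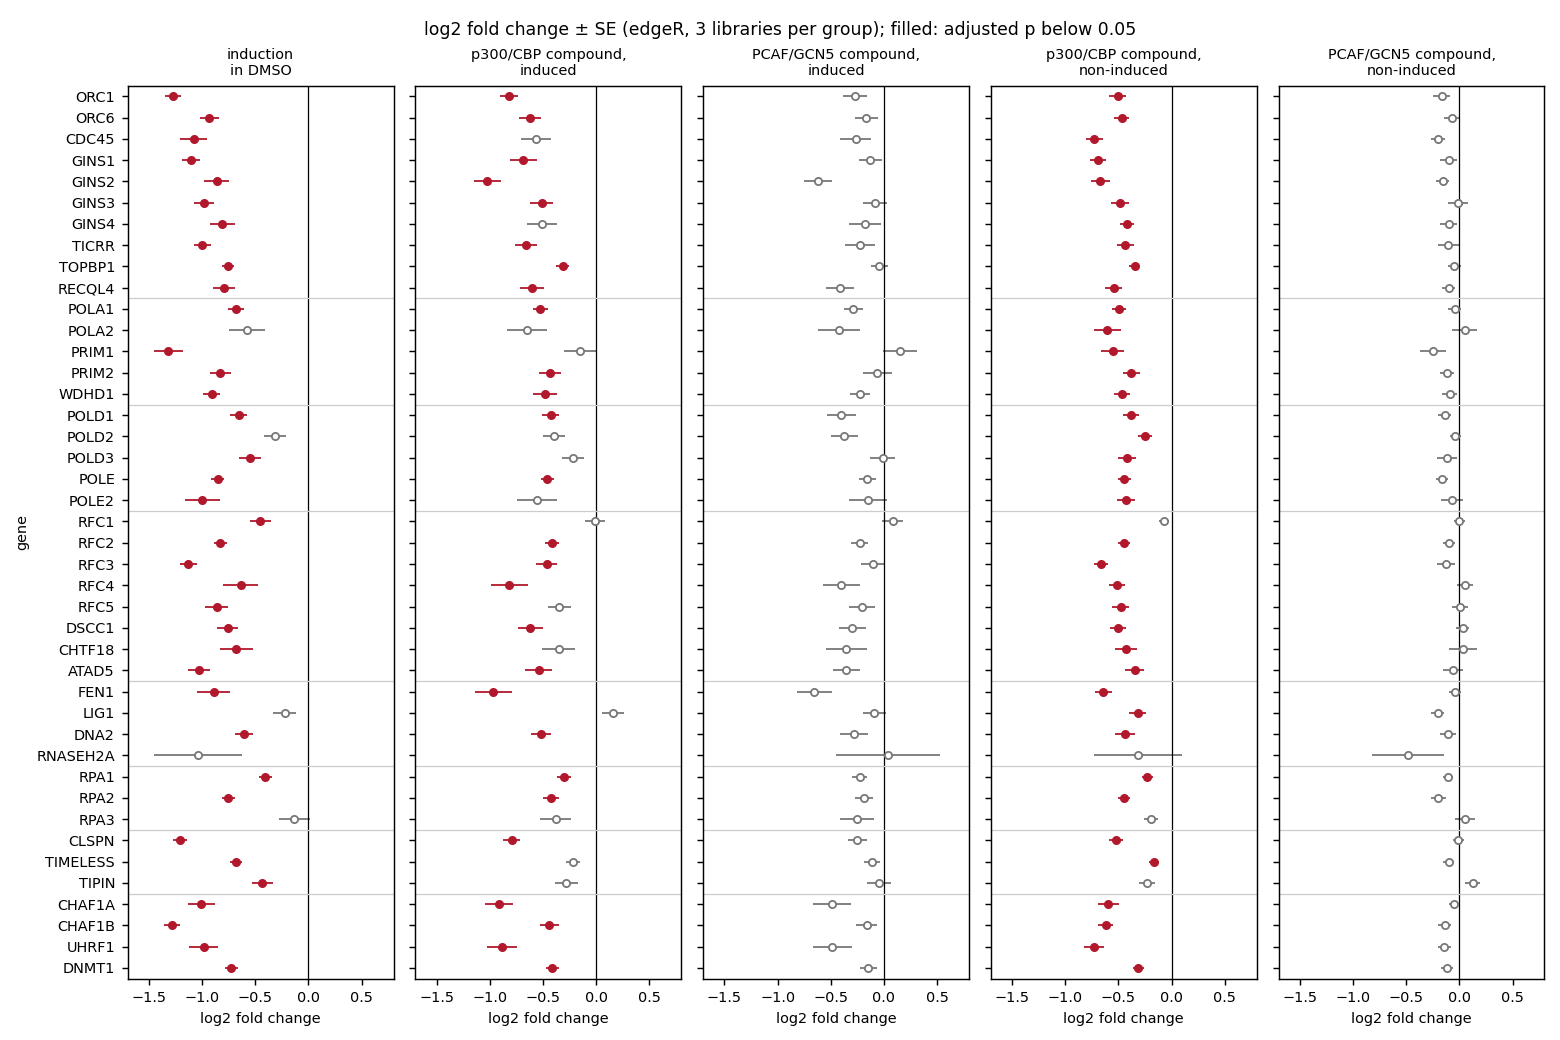
Log2 fold change ± SE (x axis) of each member (y axis, by role) in 5 comparisons, 3 libraries per group; filled red points have an adjusted p below 0.05. Filled points number 37 for induction, 27 and 38 for the p300/CBP compound in induced and non-induced cells, and 0 in both panels of the PCAF/GCN5 compound.

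The second comparison asked what the p300/CBP compound does in cells without p53 induction. It lowered 38 of 42 members and raised 0, where 6.46% of the 14943 genes tested fell. The median log2 fold change was -0.45 against 0.00 over all genes, and ranges did not overlap, compound below DMSO, for 40 of 42 members against 13.6% of all genes tested. The third p300/CBP library was the lowest of its group for 34 of 42 members and the first the highest for 35. Leaving out any 1 library left 29 to 39 members called. The count was 29 without the second DMSO library, where 425 of 15039 genes fell. It was 39 without the first p300/CBP library, where 1512 of 15084 genes fell.

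Every origin and helicase gene, every primase and polymerase alpha gene and every subunit of polymerases delta and epsilon fell. CDC45 went from 43.9, 46.2 and 42.4 to 30.2, 25.9 and 24.96 CPM (log2 fold change -0.73 ± 0.0798, edgeR adjusted p = 3.5e-05), and GINS1 and GINS2 fell by 0.69 ± 0.0769 and 0.67 ± 0.0909. POLA2 fell by 0.60 ± 0.125 and PRIM1 by 0.55 ± 0.106, whereas the falls of the polymerase delta and epsilon subunits ranged only from 0.25 (POLD2) to 0.44 (POLE). The 3 most negative values of these classes were thus those of helicase genes.

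Of the clamp loaders 7 of 8 fell, led by RFC3 at -0.66 ± 0.0689 (edgeR adjusted p = 3e-05). RFC1 was at 278, 274 and 299 CPM against 295, 288 and 297 CPM in DMSO, overlapping ranges with a log2 fold change of -0.07 ± 0.0454 (edgeR adjusted p = 0.378). FEN1 fell by 0.64 ± 0.0839, from 96.1 to 102 CPM down to 72.9, 66.5 and 54.1 CPM, with no overlap. LIG1 fell by 0.32 ± 0.0794 (edgeR adjusted p = 0.0163), at 55.5, 49.9 and 43.7 CPM; this call was lost in 3 of the 6 settings that leave out a library and when all 6 groups were fitted together (edgeR adjusted p = 0.0542). RPA1 and RPA2 fell and RPA3 had -0.19 ± 0.0676 (edgeR adjusted p = 0.0816). CLSPN fell by 0.53 ± 0.0681 and TIMELESS by 0.17 ± 0.0492, and TIPIN had -0.23 ± 0.0758 (edgeR adjusted p = 0.0611).

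The chromatin genes again all fell. UHRF1 went from 153, 148 and 139 to 108, 85.4 and 74.5 CPM (log2 fold change -0.73 ± 0.0943, edgeR adjusted p = 0.000115), the most negative value of all members in this comparison. CHAF1B fell by 0.62 ± 0.0685, CHAF1A by 0.60 ± 0.0993 and DNMT1 by 0.31 ± 0.0551. CDKN1A was at 89.6 ± 3.37 CPM in DMSO and 105 ± 4.66 CPM with the compound (SD, n = 3), a rise of 0.20 on the log2 scale, beside a rise of 1.95 on p53 induction in DMSO. Whether either change bears on the members was not tested.

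The third comparison asked what the p300/CBP compound adds once p53 is induced. It lowered 27 of the 41 members tested and raised 0, where 3.04% of the 15019 genes tested fell; RNASEH2A was below the count filter. The median log2 fold change was -0.48 against 0.00 over all genes, and ranges did not overlap, compound below DMSO, for 36 of 41 members against 16.2% of all genes. The number of calls depended on the library: leaving out the third induced DMSO library gave 36 that fell and 1 that rose, LIG1, beside 10.9% of all genes that fell, while leaving out p300/CBP library 1, 2 or 3 gave 11, 10 or 6 calls, beside 0.827%, 0.69% and 0.602% of all genes. With all libraries kept, 36 members fell when all 6 groups were fitted together, beside 1280 of 16019 genes. Without the count filter 34 fell, beside 1255 of 30226 genes. With a replicate block 18 fell, beside 242 of 15019 genes. The calls of CHAF1A, CLSPN, GINS2, ORC1, POLA1 and POLE held in all alternatives run. KRT18 and KRT8 fell as well, by 0.74 ± 0.116 and 0.37 ± 0.069 (edgeR adjusted p = 0.0069 and 0.0167; KRT18 by 0.57 without the third DMSO library). In non-induced cells the compound lowered KRT18 by 0.24 ± 0.0627, and the part of this in the members' values was not tested.

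Among origin and helicase genes, 8 of 10 fell. GINS2, a GINS subunit, was at 38.3, 42.7 and 52.3 CPM in DMSO and 21.3, 22.96 and 21.8 CPM with the compound (log2 fold change -1.02 ± 0.124, edgeR adjusted p = 0.00208), the most negative value of all members. The third DMSO library was the highest, and without it the log2 fold change was -0.88. ORC1 went from 19.8, 19.5 and 18.7 to 10.8, 11.0 and 11.2 CPM, separate and narrow ranges (-0.82 ± 0.0875, edgeR adjusted p = 0.00105). CDC45 and GINS4 had -0.56 ± 0.143 and -0.51 ± 0.139 and did not pass (edgeR adjusted p = 0.0531 and 0.0679); both were called without the third DMSO library, at -0.42 and -0.37.

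POLA1, the catalytic subunit of polymerase alpha, fell by 0.52 ± 0.0704, from 43.5, 45.3 and 44.8 to 31.3, 30.9 and 31.2 CPM. PRIM1, the gene with the most negative value on induction, was at 9.72, 8.93 and 10.2 CPM with the compound, against 11.2, 12.4 and 8.31 CPM in DMSO, so that the ranges overlapped through the third library (-0.16 ± 0.151, edgeR adjusted p = 0.562). Without that library PRIM1 had -0.30 (edgeR adjusted p = 0.0575). POLE and POLD1 fell by 0.46 ± 0.062 and 0.43 ± 0.0811. POLD2, POLD3 and POLE2 did not pass in this fit, but were called without the third DMSO library (-0.27, -0.31 and -0.74). In the authors' deposited results, with all libraries, POLD2 and POLE2 were lower (DESeq2 adjusted p = 0.0002 and 0.00088). POLD3 did not pass there (DESeq2 adjusted p = 0.0719). Of the clamp loaders 5 of 8 fell, led by RFC4 at -0.82 ± 0.173 (-0.58 without the third DMSO library), and RFC1 was at 217, 219 and 217 CPM, against 237, 239 and 181 CPM in DMSO (-0.01 ± 0.0951, edgeR adjusted p = 0.942). Without the third DMSO library, which was low, RFC1 fell by 0.13 (edgeR adjusted p = 0.0172), RFC5 by 0.45 and POLA2 by 0.46.

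FEN1 fell by 0.97 ± 0.171 (edgeR adjusted p = 0.0122), to 28.7, 30.2 and 25.5 CPM, below all DMSO libraries; without the third DMSO library the log2 fold change was -0.73. LIG1 alone among the 41 members tested had a positive value: at 59.5, 62.4 and 58.7 CPM it was above the first DMSO libraries (47.6 and 51.3 CPM) and overlapped the third (61.8 CPM). Its log2 fold change was 0.16 ± 0.104 (edgeR adjusted p = 0.39), and without the third DMSO library it rose by 0.28 (edgeR adjusted p = 9.04e-05). These p300/CBP levels of LIG1 lay close to the 59.2 to 63.7 CPM of non-induced DMSO cells.

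RPA1 and RPA2 fell by 0.30 ± 0.0632 and 0.43 ± 0.0762, and RPA3 had -0.38 ± 0.145 (edgeR adjusted p = 0.162), or -0.18 (edgeR adjusted p = 0.084) without the third DMSO library. CLSPN fell by 0.80 ± 0.0764 (edgeR adjusted p = 0.000648), to 30.3, 29.3 and 31.3 CPM, which is 25.5% of its mean in non-induced DMSO cells. TIMELESS and TIPIN did not pass, at -0.22 ± 0.0671 and -0.28 ± 0.106, and TIMELESS was called at the same size without the third DMSO library. All 4 chromatin genes fell: CHAF1A to 42.2, 45.0 and 41.4 CPM (-0.91 ± 0.131, edgeR adjusted p = 0.00483), UHRF1 by 0.89 ± 0.141, CHAF1B by 0.44 ± 0.087 and DNMT1 by 0.41 ± 0.0609. Without the third DMSO library CHAF1A and UHRF1 had -0.73 and -0.69.

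**Figure D3:**
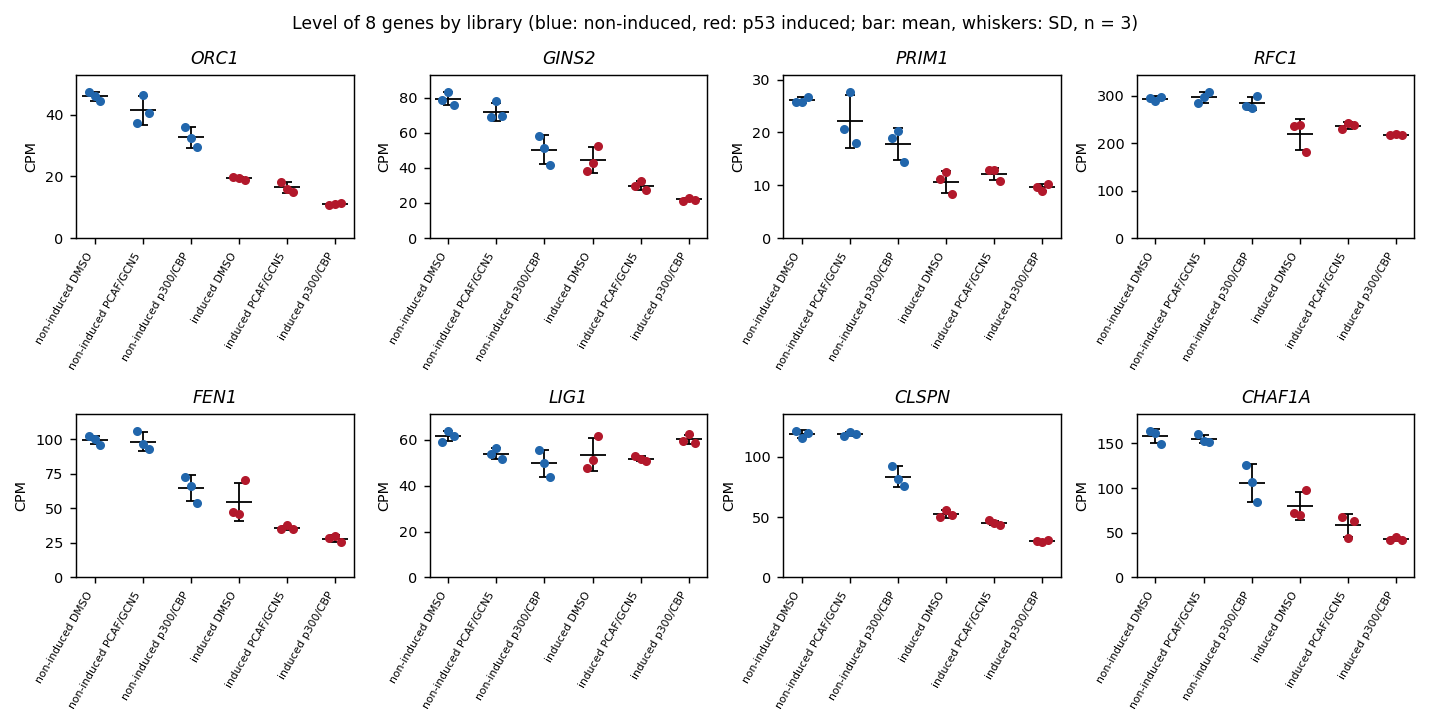
CPM (y axis, from 0) of 8 members in each library of the 6 groups (x axis); points are libraries, bars are means and whiskers SD (n = 3), blue without and red with p53 induction. ORC1, GINS2, CLSPN and CHAF1A are lowest in induced cells with the p300/CBP compound, at 24.0% to 27.7% of non-induced DMSO, RFC1 stays between 181 and 308 CPM, and LIG1 with the p300/CBP compound in induced cells is at 58.7 to 62.4 CPM.

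The PCAF/GCN5 compound lowered 0 of 42 members in induced cells and raised 0 by the edgeR test, where 0.00663% of the 15078 genes tested fell. At an unadjusted p below 0.05 there were 16 members, beside 10.1% of all genes, and the DESeq2 Wald test called 2, beside 0.666% of the genes to which it gave an adjusted p. The median log2 fold change was -0.23 against -0.01 over all genes, and ranges did not overlap, compound below DMSO, for 15 members against 6.84% of all genes tested. The most negative values were those of FEN1, at 34.7, 37.6 and 34.7 CPM (-0.65 ± 0.163, edgeR adjusted p = 0.271), and of GINS2, at 29.7, 32.3 and 27.2 CPM (-0.62 ± 0.133, edgeR adjusted p = 0.151). Both sat below all 3 DMSO libraries. Without the third DMSO library exactly these 2 fell, FEN1 by 0.41 and GINS2 by 0.47 (edgeR adjusted p = 0.029 and 0.0324), beside 0.0261% of all genes. CHAF1A had -0.49 ± 0.178 and UHRF1 -0.49 ± 0.182 (edgeR adjusted p = 0.459 for both), with the second compound library low in each, at 43.9 and 42.3 CPM against 63.6 and 67.6 CPM and 58.2 and 64.9 CPM in its partners. Without the third DMSO library these values were -0.30 and -0.28. PRIM1 had a positive value, 0.15 ± 0.158 (edgeR adjusted p = 0.725), which was 0.013 without that library. In the authors' deposited table of this comparison, 17 members had a DESeq2 adjusted p below 0.05, all lower with the compound, and 1 had no adjusted p; 7.15% of the genes with an adjusted p in that table were called lower.

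In non-induced cells the PCAF/GCN5 compound again lowered 0 and raised 0 of 42 members by the edgeR test, where 0.0132% of the 15100 genes tested fell. At an unadjusted p below 0.05 there were 9 members, beside 6.35% of all genes. The DESeq2 Wald test called 0 members, beside 0.132% of the genes to which it gave an adjusted p. Those were only 3032 of 30235 genes, so members without an adjusted p could not be called by it. In the authors' deposited DESeq2 results of this comparison 20 of 42 members had no adjusted p. The median log2 fold change was -0.10 against 0.00 over all genes. Ranges did not overlap for 7 members below DMSO, namely CDC45, CHAF1B, DNMT1, LIG1, RPA1, RPA2 and TIMELESS, against 5.64% of all genes, and for TIPIN above DMSO, against 7.25%. LIG1 was at 54.0, 56.4 and 51.7 CPM (-0.20 ± 0.0604, edgeR adjusted p = 0.779), and TIPIN at 27.2, 27.8 and 26.1 CPM against 23.9 to 24.8 CPM in DMSO (0.13 ± 0.0726, edgeR adjusted p = 0.798). FEN1 had -0.04 ± 0.0559 here.

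The compounds were then compared directly, which leaves out every DMSO library. They differ in the acetyltransferase they are named for, and p-values were adjusted over all genes in each of the 2 states. In induced cells 12 of 41 members were lower with the p300/CBP than with the PCAF/GCN5 compound, where 2.25% of 14983 genes were, and 1, LIG1, was higher, where 1.87% were. Ranges did not overlap for 30 members with p300/CBP lower, against 13.1% of all genes, and for LIG1 with p300/CBP higher, against 8.43%. The median difference was -0.28 on the log2 scale against 0.00 over all genes. The members lower with p300/CBP numbered 6, 6 and 3 without p300/CBP library 1, 2 and 3, beside 1.1%, 0.83% and 0.783% of all genes, and those of CLSPN and ORC1 held in all alternatives run.

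Of the 12, 6 were origin and helicase genes. GINS1 had a difference of -0.56 (95% confidence interval -0.81 to -0.32, edgeR adjusted p = 0.0102), ORC1 one of -0.56 (-0.78 to -0.34, edgeR adjusted p = 0.00504) and CLSPN one of -0.56 (-0.71 to -0.41, edgeR adjusted p = 0.0002). The others were GINS2, GINS3, ORC6 and TOPBP1, the polymerase subunit POLE, the clamp loader RFC4, FEN1, CHAF1A and DNMT1. LIG1 was at 58.7 to 62.4 CPM with the p300/CBP and 50.8 to 52.8 CPM with the PCAF/GCN5 compound, a difference of 0.24 (0.11 to 0.37, edgeR adjusted p = 0.0383). Without any 1 of the p300/CBP libraries or the third PCAF/GCN5 library this call was lost (edgeR adjusted p between 0.103 and 0.245), and so it was when all 6 groups were fitted together (edgeR adjusted p = 0.274) and with a replicate block (edgeR adjusted p = 0.0595). Intervals for CHTF18 (-0.01, -0.28 to 0.26), a subunit of an alternative clamp loader, and POLD2 (-0.04, -0.19 to 0.12) held 0 and bounded the difference to within 0.28 and 0.19.

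In non-induced cells 17 of 42 members were lower with the p300/CBP than with the PCAF/GCN5 compound, where 0.932% of 15131 genes were, and 0 were higher. Ranges did not overlap for 33 members with p300/CBP lower, against 11% of all genes, and the median difference was -0.35 against 0.00. FEN1 was at 72.9, 66.5 and 54.1 CPM with the p300/CBP and 106, 96.3 and 92.6 CPM with the PCAF/GCN5 compound, a difference of -0.60 (-0.81 to -0.40, edgeR adjusted p = 0.0125). POLA2 had -0.65 ± 0.141, GINS1 -0.59 ± 0.0961, UHRF1 -0.59 ± 0.109 and RFC4 -0.56 ± 0.0856. LIG1 did not pass here (-0.12, -0.31 to 0.07, edgeR adjusted p = 0.586). The count was 0 without the second library of the p300/CBP or the PCAF/GCN5 compound, beside 0.00646% and 0.00648% of all genes, and 4 and 9 without the third, beside 0.117% and 0.29%. It was 22 without the first PCAF/GCN5 library, beside 1.54% of all genes. No single member was therefore called in every alternative, while 41 of 42 differences were negative in all of them.

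Interaction terms tested whether the effect of a compound differed between the states. For the p300/CBP compound 0 of 42 members passed the edgeR test, where 1.28% of 15618 genes did; 3 had an unadjusted p below 0.05, beside 10.5% of all genes, and the DESeq2 Wald test called 0, beside 1.88% of genes. LIG1 had the largest interaction among the 41 members other than RNASEH2A, 0.49 ± 0.146 (95% confidence interval 0.18 to 0.80, edgeR adjusted p = 0.163), from -0.32 without to 0.16 with induction; without the third induced DMSO library it passed, at 0.60 (edgeR adjusted p = 0.00075). PRIM1 had 0.41 ± 0.2 (edgeR adjusted p = 0.491), or 0.26 without that library, ORC1 -0.30 ± 0.122 and CLSPN -0.26 ± 0.112. For the PCAF/GCN5 compound 0 passed, where 0.0696% of 15813 genes did; 9 had an unadjusted p below 0.05, beside 7.26% of all genes, and the DESeq2 Wald test called 0, beside 0.221% of genes. FEN1 had the most negative value, -0.61 ± 0.18 (edgeR adjusted p = 0.599), or -0.36 (edgeR adjusted p = 0.198) without the third induced DMSO library. For the difference between compounds 0 passed, where 0.326% of 15656 genes did; 2 had an unadjusted p below 0.05, beside 8.39% of all genes, the DESeq2 Wald test called 0, beside 0.905% of genes, and LIG1 had 0.35 ± 0.111 (edgeR adjusted p = 0.305).

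**Figure D4:**
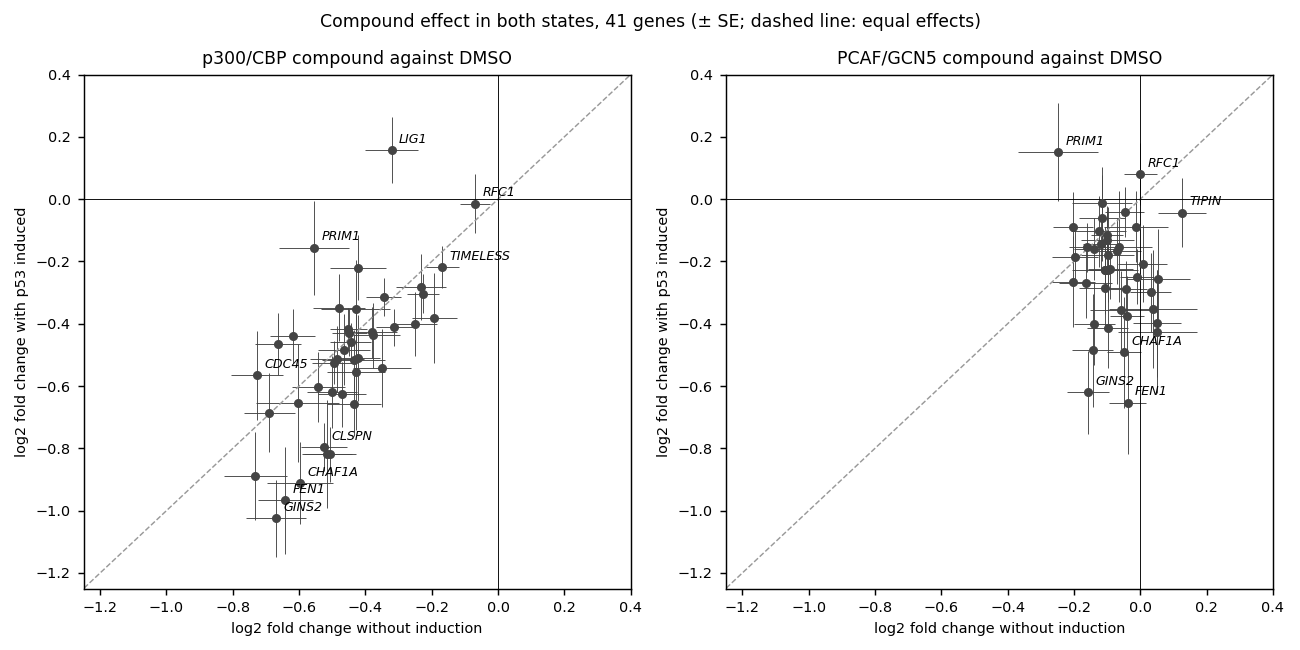
Log2 fold change against DMSO of each compound without (x axis) and with (y axis) p53 induction, for 41 members (RNASEH2A left out), with SE bars; the dashed line marks equal effects. For the p300/CBP compound 40 points lie at or below 0 on both axes and LIG1 lies above 0 with induction only; for the PCAF/GCN5 compound most points lie near 0 on the x axis and reach -0.65 on the y axis.

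The induced and the non-induced p300/CBP comparisons share no library. Over 41 members their log2 fold changes correlated with Pearson's r of 0.671 and Spearman's rho of 0.71, a description across genes, which are not independent. All 27 members called in induced cells were also called in non-induced cells, which is 71.1% of the 38 called there. The other 11 were CDC45, CHTF18, GINS4, LIG1, POLA2, POLD2, POLD3, POLE2, PRIM1, RFC5 and TIMELESS. With 38 of 42 members called in non-induced cells, most of any 27 members would be shared, so this overlap says little. For the PCAF/GCN5 compound the correlation was -0.265 and -0.227 over 42 members. This set includes the imprecise RNASEH2A, which the p300/CBP set leaves out, so the correlations do not cover the same genes. Of the 13 members that differed between compounds in induced cells, 7 also differed in non-induced cells, which is 53.8% of the former and 41.2% of the latter. Overlaps over all genes were not computed for either pair of comparisons.

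Other gene lists around the same machinery, which hold no member, were counted alongside. Of 28 other replisome and licensing genes, 18 fell on induction in DMSO, among them CDT1, the licensing factor (-1.35), MCM4, a helicase subunit (-1.30), and MCM10, a helicase-associated factor (-1.28). The p300/CBP compound lowered 18 of them in non-induced and 11 in induced cells (16 without the third induced DMSO library). In induced cells it raised ORC4, an ORC subunit (0.49 ± 0.0711), and PCNA, the sliding clamp (0.33 ± 0.0752, edgeR adjusted p = 0.0361), by 0.44 and 0.41 without that library. PCNA is also a known p53 target; it fell by 0.51 ± 0.0461 with this compound in non-induced cells. In induced cells the compound thus lowered 5 of 8 clamp loader genes and raised the clamp gene. Of 14 other histone chaperones and chromatin factors, 10 fell on induction, led by ASF1B, a histone H3-H4 chaperone (-1.20), MMS22L (-1.17) and TONSL (-0.95), and the p300/CBP compound lowered 9 in non-induced and 2 in induced cells (9 without the third induced DMSO library), with ATRX raised in both (0.29 and 0.31).

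Of 24 E2F, DREAM and S phase entry regulators, 14 fell on induction, led by E2F2 (-1.73) and E2F1 (-1.37), and 1 rose, CDKN1A. The p300/CBP compound lowered 13 in non-induced and 9 in induced cells (12 without the third induced DMSO library), E2F2 by 0.90 and 1.07. It raised CDKN1A in both states and, in induced cells, RB1, the retinoblastoma protein (0.30 ± 0.0695; 0.24 without that library). The PCAF/GCN5 compound lowered 0 genes of the 3 lists in either state by the edgeR test and raised 1, CDKN1A, in induced cells. CDKN1A was at 352 ± 25.2 CPM in induced DMSO cells, 831 ± 26.7 CPM with the PCAF/GCN5 compound and 2390 ± 59.6 CPM with the p300/CBP compound (SD, n = 3). Its order across the induced groups was the reverse of that of most members, and its part in their levels was not tested.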

How the data were processed

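RNA of 18 H1299 samples was measured by RNA-seq with a directional total RNA kit, per the labels' protocols. The 4 deposited tables, each of 1 compound against DMSO in 1 state, hold the authors' whole-number counts per gene, per the file headers. They also hold, deposited by the authors from DESeq2, counts scaled by size factors (a signal), log2 fold changes, a test score, and p-values with adjusted p. StringTie and DESeq2 are named by the submitters' processing notes; the aligner, build, annotation and use of strand are not given in the sources used here. Where the authors' deposited log2 values compare DMSO with a compound in induced cells, they were multiplied by -1. In 1 deposited table the line of ANK2 is broken; that gene was left out, and the DMSO counts were read from the other non-induced table, where they were equal in all 60622 intact lines.

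Each comparison was tested on its own groups by the 2-sided quasi-likelihood F test of edgeR 4.0.16 under R 4.3.3, after TMM scaling and filterByExpr. Adjustment was by Benjamini-Hochberg over all genes tested, with calls at an adjusted p below 0.05. SE is the absolute log2 fold change over the square root of F. Alternatives were no filter, DESeq2 size factors, the DESeq2 1.42.0 Wald test, all 6 groups in 1 fit, a replicate block, and leaving out each library. The procedure was tested on simulated data. At this depth 3 counts are 0.103 to 0.331 CPM. Gene positions are those of the tables, and their build is not given. In GENCODE 29 on GRCh38, 21 of 42 members have the same start and end. Shared exonic bases were computed from the exon positions in the tables. How reads of such bases were counted is not given, so they may have gone to either gene or to neither. The genes that share the most bases with POLA2 and PRIM1 were at most 0.556 and 0.0 CPM. Full statistics were given for called members with the largest absolute log2 fold change of each role, calls against the direction of most members, and members not called, and from other lists for the called genes with the largest changes. ORC4, PCNA, ATRX and RB1 were named since they were called against the direction of their lists. Members and lists were chosen with earlier results of these data known. The level of the induced gene itself is not reported here.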

Additional observations from a re-analysis of the deposited data

Results flagged for a closer look

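These results concern genes of the accompanying lists whose response to a compound differed between the induced and the non-induced state by an edgeR interaction term. For the p300/CBP compound the log2 fold change was larger with induction by 2.56 for CDKN1A, by 0.85 for PCNA and by 0.44 for ORC4. For the PCAF/GCN5 compound it was larger with induction by 1.17 for CDKN1A. The difference between the compounds was larger with induction by 1.36 for CDKN1A and by 0.52 for PCNA. None of the 42 replication fork and chromatin assembly genes passed an interaction test with the filter on low counts and all libraries.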

How the results depend on the processing

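With TMM replaced by DESeq2 size factors the calls among the members were 37, 27 and 38 for induction and the p300/CBP compound in induced and non-induced cells, equal to those with TMM. Over all genes these fits called 2078 of 15055, 897 of 15019 and 1473 of 14943. Without a filter on low counts the calls became 6 for the PCAF/GCN5 compound with p53 induced. They became 20 and 28 for the difference between compounds in induced and non-induced cells. For the interactions of the p300/CBP and the PCAF/GCN5 compound they became 1 and 2. Over all genes these fits called 541 of 30777, 892 of 30210, 594 of 30210, 416 of 33811 and 258 of 34413, in that order. With the filter, 52 of 15078, 617 of 14983, 165 of 15131, 200 of 15618 and 11 of 15813 were called. The PCAF/GCN5 count in induced cells was also 6 with all 6 groups in 1 fit, beside 352 of 16019 genes. It was 2 by the DESeq2 Wald test, beside 107 of the 16055 genes with an adjusted p. Leaving out each library gave 32 to 42 calls for induction, 6 to 37 and 29 to 39 for the p300/CBP compound in induced and non-induced cells, 0 to 2 and 0 to 0 for the PCAF/GCN5 compound, 3 to 19 and 0 to 22 for the difference between compounds, and 0 to 1, 0 to 0 and 0 to 0 for the interactions. Over all genes, of which 15039 to 16249 were tested, calls ranged from 869 to 5001 for induction. They ranged from 263 to 3234 and 527 to 2384 for the p300/CBP compound. For the PCAF/GCN5 compound the ranges were 29 to 114 and 0 to 17. Those of the difference between compounds were 236 to 1098 and 1 to 310. The interactions had 123 to 432, 8 to 24 and 34 to 58. The cause of these shifts was not tested, beyond there being fewer samples when a library is left out.

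Deviations of same-numbered libraries correlated between -0.077 and 0.096, all under 0.1. No strong shared deviation was thus seen, but such values cannot settle whether same-numbered libraries were handled together. A replicate block gave 37, 18, 0, 37 and 0 calls for induction, the p300/CBP and PCAF/GCN5 compounds in induced cells and the same in non-induced cells, and 15 and 13 for the difference between compounds. Over all genes it called 1560 of 15055, 530 of 15019, 71 of 15078, 1311 of 14943 and 14 of 15100. For the difference between compounds it called 568 of 14983 and 46 of 15131.

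Of 2291 single-gene values under an alternative, 1982 kept their sign and side of the threshold, and 10 changed sign, none of them past the threshold. Between compounds in induced cells CHTF18 had 0.0014 with the block and -0.13 to 0.16 when a library was left out, POLD1 -0.17 to 0.075 and POLD2 -0.11 to 0.066. When a library was left out in induced cells, the PCAF/GCN5 compound gave -0.17 to 0.042 for LIG1 and -0.028 to 0.14 for RFC1, and the p300/CBP compound gave -0.13 to 0.050 for RFC1. In non-induced cells it gave -0.98 to 0.023 for RNASEH2A, the member with the lowest counts.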
